A study of Homo sapiens with 12 samples.

Results

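The genes described here encode lysosomal enzymes, lysosomal membrane proteins, subunits of the lysosomal proton pump and the transcription factors TFEB, TFE3 and MITF. They form a list of 43 symbols, and a member was kept when its normalized count reached 1 in 3 or more of the 12 libraries. A total of 42 members passed, of 18648 genes that passed in the whole table. The remaining one, GALC, which encodes the galactosylceramidase, is listed at 0 in every library and was not tested.

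RNA sequencing was done on A498, an established human kidney carcinoma line. Cells received siRNA against ELOVL2 (siELOVL2), siRNA against ELOVL5 (siELOVL5), both siRNAs together (double) or a control siRNA (control). ELOVL2 and ELOVL5 are elongases that lengthen polyunsaturated fatty acids, and siRNAs direct the cleavage of messenger RNAs that match their sequence. Each group has 3 libraries that the labels call biological replicates, so the p-values measure the spread between these. All groups were transfected, all carry the same batch label, and neither the number of siRNA sequences per target nor the time of harvest is stated in the labels.

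Lysosomes are acidic organelles in which proteins, glycans, lipids and whole organelles are broken down. A proton pump in the lysosomal membrane keeps the lumen acidic, and the hydrolases inside are active at that pH. Many lysosomal genes share the CLEAR element, built around the E-box word CACGTG, to which TFEB, TFE3 and MITF bind. When mTORC1 on the lysosomal surface is active it phosphorylates TFEB and keeps it in the cytoplasm, so TFEB activity depends on where the protein is as well as on its transcript level, which is the only one of these measured here. Kidney proximal tubule cells, the cells from which clear cell kidney carcinoma is thought to arise, take up much filtered protein and degrade it in lysosomes. Rearrangements of TFE3 and TFEB define separate types of kidney carcinoma.

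The promoters of the members can be read for that word. RefSeq promoter windows of GRCh38.p14, reaching from 250 bases before to 50 bases after each listed start, were found for 32 of the 43 members, with 51 windows in all. CACGTG, a palindrome and therefore the same on both strands, is present in the windows of 12 of these 32 members (37.5%) and in 12 of the 51 windows (23.5%), against 7.26% of all 35116 windows in the table. The longer word TCACGTGA is in 6 members and in 11.8% of their windows (0.98% of all windows), and the 10-base palindrome that extends it by 1 base on each side, in capitals for GAA and GALNS below, is in 3 members (GAA, GALNS and MCOLN1) and 5.88% of their windows (0.353% of all windows). These 3 words are nested, so a match to a longer one is also counted for the shorter ones. TCATGTGA, searched on both strands, is in 4 members, CD63, GALC, PPT1 and TPP1, and in 7.84% of member windows (1.0% of all windows).

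The stretches below show the word in 6 promoters, 2 of members called higher in at least 1 comparison (NEU1, ATP6V0D1) and 4 of further members with the longer words. Each is 30 bases, 5′ to 3′ on the strand of the gene, and capitals mark the longest of these words at that site.
NEU1, chr6:31862930-31862959, minus strand: atgctgcgtgatCACGTGggaggagatgag
ATP6V0D1, chr16:67481199-67481228, minus strand: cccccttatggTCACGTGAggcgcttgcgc
GAA, chr17:80101493-80101522, plus strand: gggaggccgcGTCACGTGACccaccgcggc
GALNS, chr16:88857104-88857133, minus strand: caggcaccgcGTCACGTGACccgccgctgg
MCOLN1, chr19:7522571-7522600, plus strand: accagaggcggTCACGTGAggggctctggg
CTSA, chr20:45891298-45891327, plus strand: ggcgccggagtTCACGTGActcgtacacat
The first capital lies 126 bases before the listed start in NEU1, 60 in ATP6V0D1, 78 in GAA, 176 in GALNS, 42 in MCOLN1 and 26 in CTSA. GAA holds a further match to the 10-base word at −33, counted back from the start, and the match of MCOLN1 to that word is at −16, downstream of the site shown. GM2A and CTSH, the other members called, have no CACGTG in their windows.

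The deposited values, here called normalized counts, form the same set of numbers in every library, as quantile normalization of read counts gives. They total 8.525 M in every library, and the depth before that step, estimated from ties among low counts, was between 6.703 and 10.681 M reads. A gene without a read could still hold up to 0.917. Both siRNAs lowered their targets: ELOVL2 averaged 25.2 ± 6.05 normalized counts in siELOVL2 cells and 23.9 ± 3.53 in double cells, against 269.9 ± 50.7 in control cells (SD, n = 3 each). ELOVL5 averaged 148 ± 7.43 in siELOVL5 cells and 179 ± 7.50 in double cells, against 1977 ± 53.2 in control cells. All 8 listed kidney carcinoma epithelium markers passed the filter. Their sum was 27144 to 28092 in siELOVL2 libraries, 25563 to 31551 in siELOVL5 libraries and 24936 to 29249 in double libraries, against 33198 to 33684 in control libraries. A list of 8 macrophage and leukocyte markers, of which 6 passed and AIF1 is listed at 0 throughout, summed to 36.4 to 58.8 in siELOVL2 libraries, 32.2 to 43.8 in siELOVL5 libraries and 42.9 to 65.0 in double libraries, against 26.4 to 38.9 in control libraries. Fibroblast markers (5 listed, 3 passed, LUM at 0 throughout) summed to 271 to 356 in siELOVL2 libraries, 401 to 445 in siELOVL5 libraries and 275 to 327.5 in double libraries, against 364 to 462 in control libraries. Endothelial markers (4 listed, 3 passed) summed to 14.2 to 30 in siELOVL2 libraries, 14.4 to 17.7 in siELOVL5 libraries and 8.75 to 18.8 in double libraries, against 2.17 to 13.1 in control libraries. All knockdown libraries thus lay below all controls for the kidney carcinoma epithelium sum. The double libraries lay above all controls for the macrophage and leukocyte sum. For the fibroblast sum the siELOVL2 and double libraries lay below all controls. For the endothelial sum the siELOVL2 and siELOVL5 libraries lay above all controls. The part of these shifts in the results below was not tested. The calls depended on single libraries. Omitting siELOVL5 replicate 3 raised the genes called in siELOVL2 against control to 829, from 254 with all libraries. This was the largest rise for any single omission, and omitting control replicate 2 gave the largest fall, to 63. Values without siELOVL5 replicate 3 are given where it decides a call. That library was picked by its effect on the calls, so those values are no support for a call.

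To compare genes with each other, normalized counts were divided by the exonic length of each gene in GENCODE 29, which may differ from the annotation behind the table. In control cells CTSD, the aspartic protease cathepsin D, had the highest level at 4884 ± 269 normalized counts per kb of exon (SD, n = 3). PSAP, the precursor of the saposins that help degrade sphingolipids, followed at 2321 ± 437 and the tetraspanin gene CD63 at 2032 ± 89.5 per kb. CTSA, CTSB, CTSZ and LAMP1 came next, at 1571 ± 207 for CTSA and 1009.7 ± 34.0 per kb for LAMP1, and the control libraries of CTSB and CTSZ overlapped, as did those of CTSZ and LAMP1 and those of PSAP and CD63. At the low end TFEB had 13.3 ± 1.57, CTSK 5.98 ± 2.47 and IDUA 2.87 ± 1.5 per kb. TFE3 at 114 ± 14 and MITF at 52.4 ± 3.57 per kb lay above TFEB. Of the 41 neighbouring pairs in this order, 26 overlapped in their control libraries, so only part of the order exceeds the spread between replicates.

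**Figure D1:**
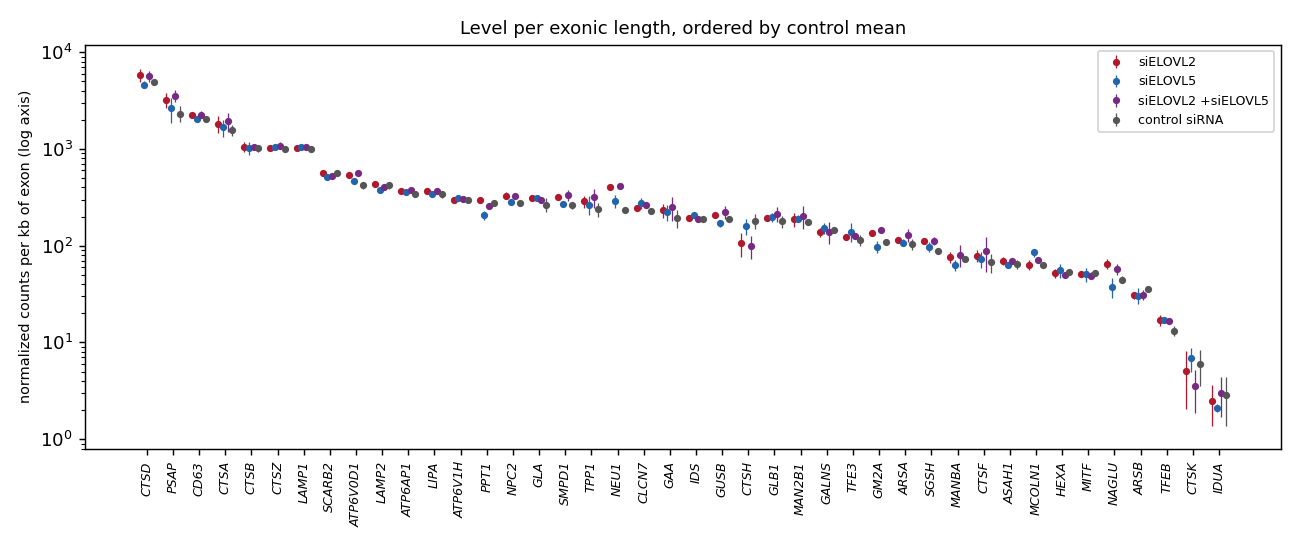
Mean level of each lysosomal gene in normalized counts per kb of exon (log axis), ordered by the control mean; points are group means of 3 libraries and bars are SDs. CTSD stands highest and IDUA lowest, and the 4 groups lie close together for most genes. The siELOVL2 and double means lie above the control mean for NEU1 and below it for CTSH.

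The first comparison asks what lowering ELOVL2 did to these genes. NEU1, the sialidase that removes sialic acid from glycoproteins and glycolipids, rose, and it was the 1 member of 42 called at an adjusted p under 0.05 in limma; 1.36% of all tested genes were called (0.547% higher, 0.815% lower). Log2 fold changes were positive for 35 of the 42 members, with a median of 0.12, while over all 18648 genes 52.5% were positive and the median was 0.02. With libraries rescaled by median ratios, 31 members were positive. At an unadjusted p under 0.05 limma gave 10 members (23.8%) and 2557 of all genes (13.7%). All 3 siELOVL2 libraries lay above all 3 control libraries for 13 members (31.0%, against 12.0% of all genes) and below them for 2, CTSH and ARSB (4.76%, against 10.4% of all genes). In bulk RNA a change in the number of cells of a type and a change in RNA per cell cannot be told apart.

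The second comparison asks the same of ELOVL5. None of the 42 members was called, and 0.139% of all genes were (0.0161% higher, 0.123% lower). At an unadjusted p under 0.05 limma gave 6 members (14.3%), MCOLN1, CLCN7, NEU1, GLA, PPT1 and TFEB, beside 1783 of all genes (9.56%). Fold changes were positive for 28 members and the median was 0.06, while over all genes 48.2% were positive and the median was −0.0039. Without siELOVL5 replicate 3 only 22 members were positive and their median was 0.02. The median was 0.10 without siELOVL5 replicate 1, 0.04 without siELOVL5 replicate 2 and 0.03 without control replicate 1. Libraries of siELOVL5 cells lay wholly above control for 6 members (14.3%, against 6.07% of all genes) and wholly below for 2, SCARB2 and PPT1 (4.76%, against 7.04%).

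With both siRNAs 4 members were called against control, where 4.42% of all genes were called (2.15% higher, 2.27% lower). NEU1, ATP6V0D1 and GM2A rose and CTSH fell. Fold changes were positive for 32 of 42 members, with a median of 0.16 (52.1% positive and a median of 0.02 over all genes). At an unadjusted p under 0.05 limma gave 11 members (26.2%) and 18.8% of all genes. Without double replicate 3 the median was 0.10 and limma gave 7 members at that p. Libraries did not overlap with control for 14 members on the higher side (33.3%, against 13.4% of all genes) and for 2, CTSH and HEXA, on the lower side (4.76%, against 11.4%). The 3 comparisons with control share the same 3 control libraries. Without siELOVL5 replicate 3 the members called were 4 for siELOVL2, adding ATP6V0D1, GM2A and NAGLU, and 7 for double cells, adding CLCN7, PSAP and SMPD1. Each other single omission left 1 member called for siELOVL2 and at most 4 for double cells. Calls over all genes rose as well, to 829 for siELOVL2 and 1779 for double cells, of 18447 tested. With all libraries they were 254 and 825 of 18648.

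**Figure D2:**
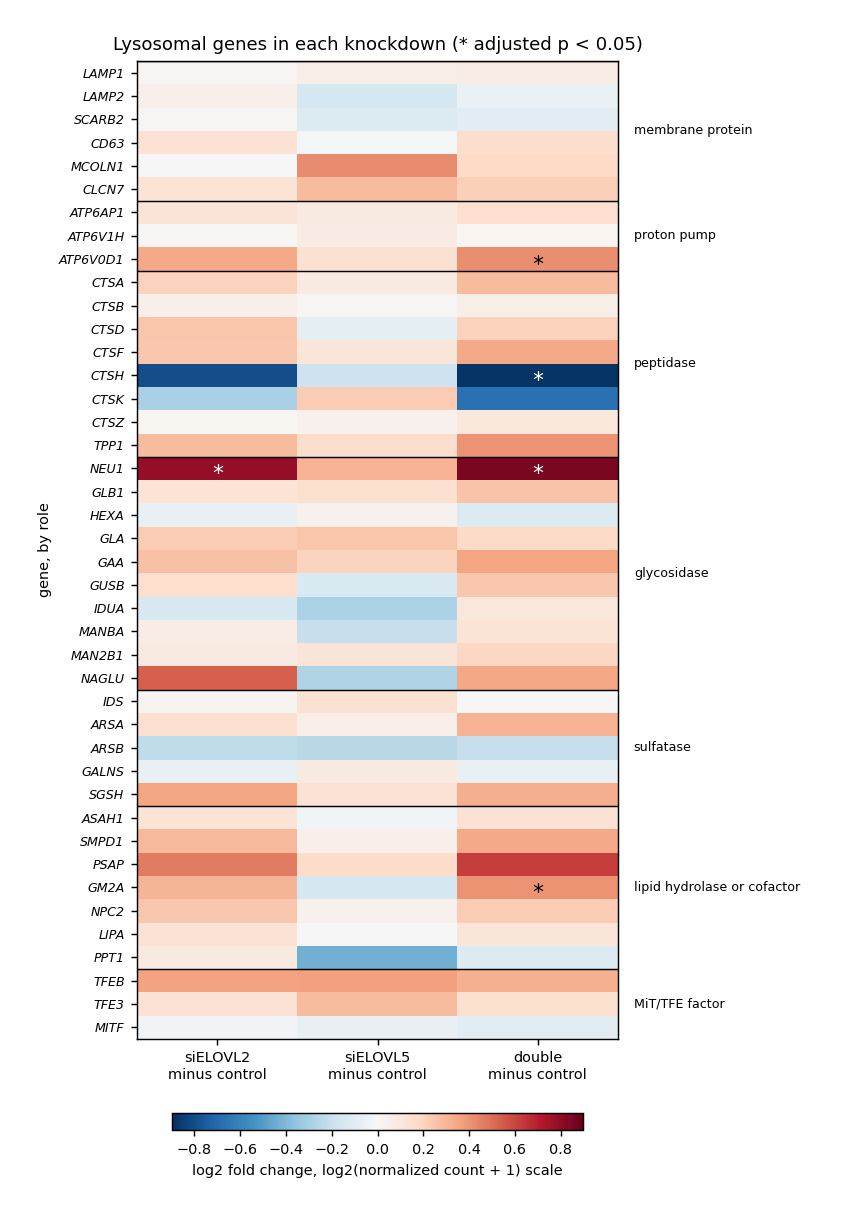
Log2 fold change of the 42 lysosomal genes in siELOVL2, siELOVL5 and double cells, each against control, on the log2(normalized count + 1) scale, grouped by role; red is higher and blue lower in the knockdown, and an asterisk marks an adjusted p under 0.05 in limma. NEU1 is marked in siELOVL2 and double cells, ATP6V0D1, GM2A and CTSH in double cells, and no gene in siELOVL5 cells.

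NEU1 is the member with the largest rise. It had 864, 809 and 803 normalized counts in the siELOVL2 libraries, 529, 555 and 703 in the siELOVL5 libraries and 899, 813 and 855 in the double libraries, against 457, 462 and 508 in the control libraries. Every knockdown library was above every control library, and the siELOVL2 and double libraries were above the siELOVL5 ones. The log2 fold change against control was 0.79 in siELOVL2 cells (SE 0.10, limma adjusted p = 0.00172) and 0.85 in double cells (SE 0.10, limma adjusted p = 5.59e-04), and both calls held without any 1 of the 12 libraries. In siELOVL5 cells it was 0.31 and was not called (SE 0.10, limma adjusted p = 0.351). CTSA encodes the carboxypeptidase that holds NEU1 and the beta-galactosidase GLB1 in a complex. It had 3739, 3791 and 5302 normalized counts in siELOVL2 libraries, 3309, 3609.8 and 4814 in siELOVL5 libraries and 3857, 3988 and 5692 in double libraries, against 3418, 3366 and 4231 in control libraries. The groups overlapped, with replicate 3 high in each, and the fold change in double cells was 0.28 (95% interval −0.11 to 0.68). GLB1 was at 0.26 there (95% interval −0.04 to 0.55).

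The proton pump is represented by 3 members. ATP6V0D1, a subunit of the membrane sector, had 957, 1026 and 968 normalized counts in siELOVL2 libraries, 833, 826 and 913 in siELOVL5 libraries and 992, 1055 and 1065 in double libraries, against 816, 703 and 818 in control libraries. All knockdown libraries lay above all controls. It rose by 0.42 on the log2 scale in double cells (SE 0.08, limma adjusted p = 0.0103). Without control replicate 2 the adjusted p was 0.0596 and without double replicate 2 it was 0.0524. In siELOVL2 cells the fold change was 0.34 and just missed the threshold (SE 0.08, limma adjusted p = 0.0555; 0.0174 without siELOVL5 replicate 3). ATP6AP1, an accessory subunit, had a fold change of 0.12 in siELOVL2 cells and 0.15 in double cells, and ATP6V1H, a regulatory subunit of the cytosolic sector, 0.01 and 0.02.

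Of the 7 tested genes of lipid breakdown 7 had positive fold changes in siELOVL2 cells, with a median of 0.25. Over all genes 52.5% were positive and the median was 0.02. In the other roles 6 of 6 membrane protein, 3 of 3 pump and 8 of 10 glycosidase genes were positive. So were 6 of 8 peptidase, 3 of 5 sulfatase and 2 of 3 factor genes. None of the 7 was called in limma, and 4 had an unadjusted p under 0.05 (57.1%, against 13.7% of all genes). In double cells GM2A was called. GM2A, the activator that presents the GM2 ganglioside to hexosaminidase A, had 539.8, 514 and 513 normalized counts in siELOVL2 libraries, 398, 429.8 and 319.6 in siELOVL5 libraries and 569, 532 and 579 in double libraries, against 416, 427 and 426 in control libraries. Libraries with the ELOVL2 siRNA were above all controls, and the siELOVL5 libraries overlapped with them. GM2A rose by 0.40 in double cells (SE 0.10, limma adjusted p = 0.0378), a call that was lost without any 1 of 9 libraries, all but the siELOVL5 ones (adjusted p 0.0514 to 0.129), and without an intensity trend (0.0959). In siELOVL2 cells the fold change was 0.30 (limma adjusted p = 0.174; 0.0204 without siELOVL5 replicate 3). HEXA, which encodes the alpha subunit of that hexosaminidase, was at −0.06 in siELOVL2 cells and −0.12 in double cells, and neither was called.

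PSAP had the largest fold change of the lipid group. It had 7637, 9165 and 10825 normalized counts in siELOVL2 libraries, 5897, 6807 and 10102 in siELOVL5 libraries and 9443, 9443 and 11889.9 in double libraries, against 5554, 6465 and 8039.6 in control libraries. Only the double libraries cleared all controls, and the spread within each group was wide, with replicate 3 the highest in each. The fold change was 0.46 in siELOVL2 cells (SE 0.20, limma adjusted p = 0.313) and 0.63 in double cells (SE 0.20, limma adjusted p = 0.0943; 0.0210 without siELOVL5 replicate 3). SMPD1, the acid sphingomyelinase, was at 0.29 in siELOVL2 cells and 0.34 in double cells (limma adjusted p = 0.195 and 0.0745; the second was 0.0437 without siELOVL5 replicate 3). NPC2, which binds cholesterol in the lumen, was at 0.25 and 0.23. ASAH1, the acid ceramidase, was at 0.12 and 0.13, and LIPA, the acid lipase for cholesteryl esters and triglycerides, at 0.13 and 0.11, with intervals that include 0.

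PPT1, the thioesterase that removes palmitate from proteins, had its lowest values with siELOVL5. It had 1292, 1292 and 1265 normalized counts in siELOVL2 libraries, 990.5, 919.5 and 795 in siELOVL5 libraries and 1180.1, 1066 and 1101 in double libraries, against 1267, 1176 and 1200.0 in control libraries. The siELOVL5 libraries were below all others, and the double libraries lay between them and the siELOVL2 ones. The fold change of siELOVL5 against control was −0.43 (SE 0.08, 95% interval −0.61 to −0.26), with a limma adjusted p of 0.0756, the lowest among the members in that comparison and above the threshold. PPT1 exons overlap those of CAP1 in GENCODE 29 and the strand of counting is not stated, so reads of the pair may be mixed.

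**Figure D3:**
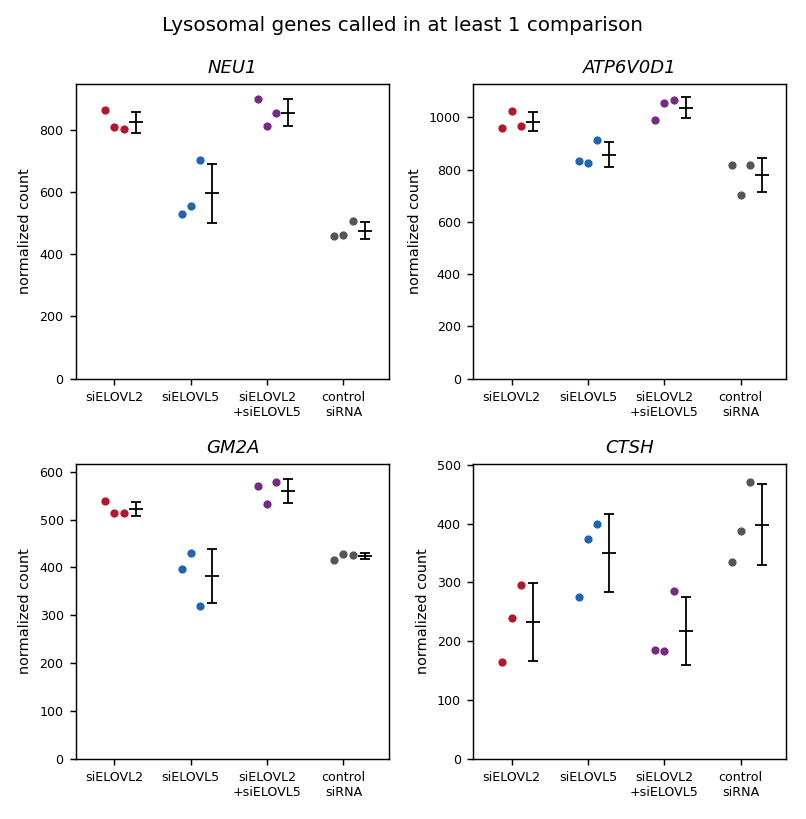
Normalized counts of NEU1, ATP6V0D1, GM2A and CTSH in each of the 12 libraries (y axis from 0); coloured points are libraries, black bars are the mean and SD of 3. NEU1 lies at 803 to 899 in the siELOVL2 and double libraries, above all others, and CTSH at 164 to 296 in the same libraries, below the control libraries at 335 to 471.

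CTSH, an aminopeptidase among the cysteine cathepsins, was the member that fell. It had 164, 239 and 296 normalized counts in siELOVL2 libraries, 275, 375 and 399.8 in siELOVL5 libraries and 185, 183 and 284 in double libraries, against 335, 387 and 471 in control libraries. All siELOVL2 and double libraries were below all controls, and the siELOVL5 libraries overlapped with them. In double cells CTSH fell by 0.88 on the log2 scale (SE 0.23, limma adjusted p = 0.0476). The call was lost without any 1 of 7 libraries: each control, siELOVL2 replicate 2, siELOVL5 replicate 2 and double replicates 1 and 2 (adjusted p 0.0598 to 0.163). It was also lost with a pseudocount of 8 (limma adjusted p = 0.0517), with no filter on low values (0.0682), without an intensity trend (0.120) and with the compared groups fitted alone (0.0726). In siELOVL2 cells the fold change was −0.80 and was not called (SE 0.23, limma adjusted p = 0.121). Replicate 3 was the highest in each group. With the replicate number added to the model CTSH was called in siELOVL2 cells (limma adjusted p = 0.0026). Whether those numbers mark pairs was not settled.

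The other 7 peptidase genes were not called in any comparison. CTSD had 10825, 11889.9 and 14577 normalized counts in siELOVL2 libraries, 10299, 10213 and 8874 in siELOVL5 libraries and 11189, 11070.4 and 13851 in double libraries, against 10736, 9711 and 10660.5 in control libraries. Neither siELOVL2 nor double libraries overlapped with the controls, and their log2 fold changes were 0.25 and 0.21 (limma adjusted p = 0.379 and 0.385). TPP1, a tripeptidyl peptidase, was at 0.28 in siELOVL2 cells and 0.40 in double cells, with a wide spread (SE 0.18). CTSB and CTSZ, both cysteine cathepsins, had log2 fold changes of at most 0.10 in size in the 3 knockdowns. CTSK, best known from osteoclasts, was scarce, at 5.97 ± 2.80 normalized counts in double cells and 10.1 ± 4.17 in control cells (SD, n = 3 each), and its fold change of −0.67 had a 95% interval of −1.69 to 0.35.

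Among the other glycosidases NAGLU, which degrades heparan sulfate, had the largest difference. It had 152, 186 and 159 normalized counts in siELOVL2 libraries, 94.1, 118 and 73.9 in siELOVL5 libraries and 143, 127 and 165 in double libraries, against 107, 124 and 109 in control libraries. Only the siELOVL5 libraries overlapped with the controls, and the other knockdown libraries lay above them. The fold change was 0.54 in siELOVL2 cells (SE 0.17, limma adjusted p = 0.152; 0.0454 without siELOVL5 replicate 3) and 0.35 in double cells (limma adjusted p = 0.294). GAA, which degrades glycogen, was at 0.26 and 0.35 with SE 0.21 for both. GLA, the alpha-galactosidase, was at 0.23, 0.25 and 0.17 in siELOVL2, siELOVL5 and double cells. GUSB, the beta-glucuronidase, was at 0.15 in siELOVL2 cells and 0.24 in double cells, and is uncertain because pseudogenes resemble it. The mannosidase genes MANBA and MAN2B1 had fold changes against control of at most 0.21 in size, and IDUA stood at 5.31 to 7.61 normalized counts on average in every group, too low for a precise fold change.

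Of the 5 sulfatase genes, SGSH, the heparan sulfamidase, differed the most. It had 374, 376 and 389.8 normalized counts in siELOVL2 libraries, 297, 374 and 311 in siELOVL5 libraries and 370.3, 340.3 and 415 in double libraries, against 312, 279 and 303 in control libraries. Controls lay below every siELOVL2 and double library. The fold changes of 0.35 in siELOVL2 cells (limma adjusted p = 0.131) and 0.33 in double cells (limma adjusted p = 0.0967) missed the threshold. SGSH and NAGLU act on the same substrate, heparan sulfate. ARSB, which acts on dermatan and chondroitin sulfate, was at −0.23, −0.25 and −0.21 in siELOVL2, siELOVL5 and double cells. ARSA, which acts on sulfatide, was at 0.15, 0.06 and 0.31, and GALNS at −0.07, 0.08 and −0.07. IDS, the iduronate sulfatase, was at 0.02, 0.13 and −0.01, and its reads may be shared with a pseudogene.

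LAMP1 and LAMP2, the glycosylated membrane proteins that are used to mark lysosomes, were not called in any comparison. LAMP1 had 2755, 2765 and 2769 normalized counts in siELOVL2 libraries, 2741, 2772 and 3012 in siELOVL5 libraries and 2924, 2856 and 2795 in double libraries, against 2814, 2631 and 2731 in control libraries. Its groups overlapped with control, and the 95% interval of the log2 fold change was −0.12 to 0.16 in siELOVL2 cells, −0.08 to 0.20 in siELOVL5 cells and −0.07 to 0.20 in double cells. LAMP2 had 2473, 2408 and 2286 in siELOVL2 libraries, 2129, 2139.8 and 1959.8 in siELOVL5 libraries and 2365, 2216 and 2073 in double libraries, against 2471, 2353 and 2130.5 in control libraries. These groups overlapped as well, and the interval was −0.12 to 0.21 in siELOVL2 cells, −0.33 to 0.01 in siELOVL5 cells and −0.23 to 0.10 in double cells. SCARB2, an integral membrane protein of lysosomes that also serves in hydrolase transport, was at 0.01 in siELOVL2 cells, −0.12 in siELOVL5 cells and −0.10 in double cells, and CD63 was at 0.13, −0.01 and 0.16.

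MCOLN1 and CLCN7, genes of ion transport across the membrane, were not called in any comparison. MCOLN1, the calcium channel TRPML1, had 149, 129 and 119 normalized counts in siELOVL2 libraries, 171, 164 and 197 in siELOVL5 libraries and 158, 141 and 148 in double libraries, against 138, 128 and 129 in control libraries. The siELOVL5 and double libraries were above all controls, and the siELOVL2 libraries overlapped with them. The fold change in siELOVL5 cells was 0.42 (SE 0.12, limma adjusted p = 0.270) and was not called. CLCN7, the chloride and proton exchanger, had 1225, 1165.5 and 1112 normalized counts in siELOVL2 libraries, 1210.4, 1201 and 1517 in siELOVL5 libraries and 1220.2, 1256 and 1252 in double libraries, against 1095, 1039 and 1078 in control libraries. All knockdown libraries were above all controls, and siELOVL5 replicate 3 was the highest. The log2 fold change was 0.12 in siELOVL2 cells, 0.28 in siELOVL5 cells and 0.21 in double cells, and the last was called without siELOVL5 replicate 3 (limma adjusted p = 0.0279).

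TFEB, TFE3 and MITF were not called in any comparison. TFEB had 76.7, 66.2 and 86.7 normalized counts in siELOVL2 libraries, 75.6, 79.4 and 74.4 in siELOVL5 libraries and 73.0, 69.8 and 79.3 in double libraries, against 61.3, 65.0 and 51.4 in control libraries. All 9 knockdown libraries were above all 3 controls. The fold changes were 0.36, 0.37 and 0.32 with SE 0.15 each (limma adjusted p = 0.304, 0.472 and 0.274). TFE3 had 413, 415 and 441 in siELOVL2 libraries, 406, 426 and 601 in siELOVL5 libraries and 439, 410.5 and 434 in double libraries, against 336, 429 and 401 in control libraries. Its groups overlapped with control, and 1 library, siELOVL5 replicate 3, was higher than the rest. MITF had 288, 331 and 324 in siELOVL2 libraries, 341, 336 and 249.2 in siELOVL5 libraries and 277, 324 and 299 in double libraries, against 295, 336 and 329.8 in control libraries, so that its groups overlapped in every comparison with control.

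**Figure D4:**
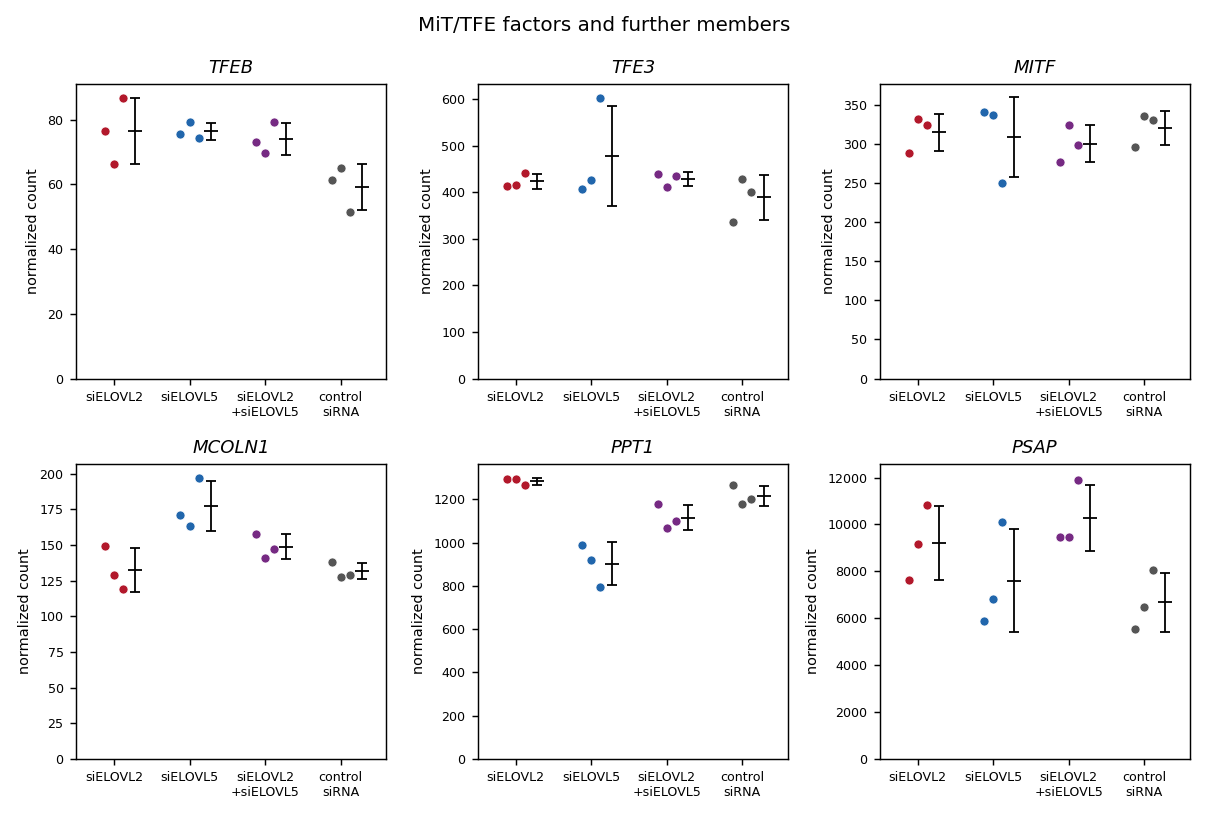
Normalized counts of TFEB, TFE3, MITF, MCOLN1, PPT1 and PSAP in each of the 12 libraries (y axis from 0); coloured points are libraries, black bars are the mean and SD of 3. TFEB lies at 66.2 to 86.7 in the knockdown libraries, above the control libraries at 51.4 to 65.0, and PPT1 is lowest in the siELOVL5 libraries.

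Members with CACGTG in the promoter window can be set beside those without it, as a description. In siELOVL2 cells the median log2 fold change was 0.17 over the 12 tested members with the word, of which 10 were positive. It was 0.12 over the 19 without it, of which 16 were positive. Over all genes 52.5% were positive there and the median was 0.02. In siELOVL5 cells the medians were 0.09 with the word and 0.04 without it, and in double cells 0.21 and 0.15. In double cells 2 of 12 members with the word were called (NEU1 and ATP6V0D1) and 2 of 19 without it (GM2A and CTSH). Of all genes 4.42% were called in that comparison, and a difference between members with and without the word was not tested.

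The ELOVL2 siRNA can be judged in separate libraries, as siELOVL2 against control and as double against siELOVL5 cells. In double against siELOVL5 cells 2 members were called, NEU1 and GM2A, both higher, where 2.77% of all genes were called (1.36% higher, 1.41% lower). NEU1 rose by 0.53 (SE 0.10, limma adjusted p = 0.0158) and lost the call without siELOVL5 replicate 1 (0.0611) or double replicate 1 (0.0677). GM2A rose by 0.56 (SE 0.10, limma adjusted p = 0.0113) and lost it without double replicate 1 (0.0504). With the double and siELOVL5 groups fitted alone neither was called, at a limma adjusted p of 0.193 for NEU1 and 0.184 for GM2A. Without siELOVL5 replicate 3 the count was 4, with ATP6V0D1 and PSAP added, beside 789 of 18447 genes (516 of 18648 with all libraries). Of the 42 members 28 were positive and 5 negative in both comparisons, a shared sign for 78.6%, against 65.8% of all genes. The fold changes of the 2 comparisons had a Pearson r of 0.743 and a Spearman rho of 0.649 across the 42 members. Across all genes these were 0.325 and 0.367, and genes are not independent replicates. The 2 sets also differ in level, as 41 members but only 13289 of the 18648 genes reached 10 in at least 3 libraries.

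Libraries did not overlap in either comparison, and were higher with the ELOVL2 siRNA, for 7 members, ATP6V0D1, CTSD, NEU1, GUSB, NAGLU, SMPD1 and GM2A (16.7%, against 5.12% of all genes), and lower for 0 (3.35% of all genes). In double against siELOVL5 cells alone 8 members were wholly higher (19.0%, against 11.4% of all genes), the 7 above and PPT1, and 2 wholly lower, MCOLN1 and CTSK (4.76%, against 7.43%). CTSH was negative in both comparisons, at −0.80 and −0.70. TFEB was at 0.36 in the first and −0.05 in the second.

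**Figure D5:**
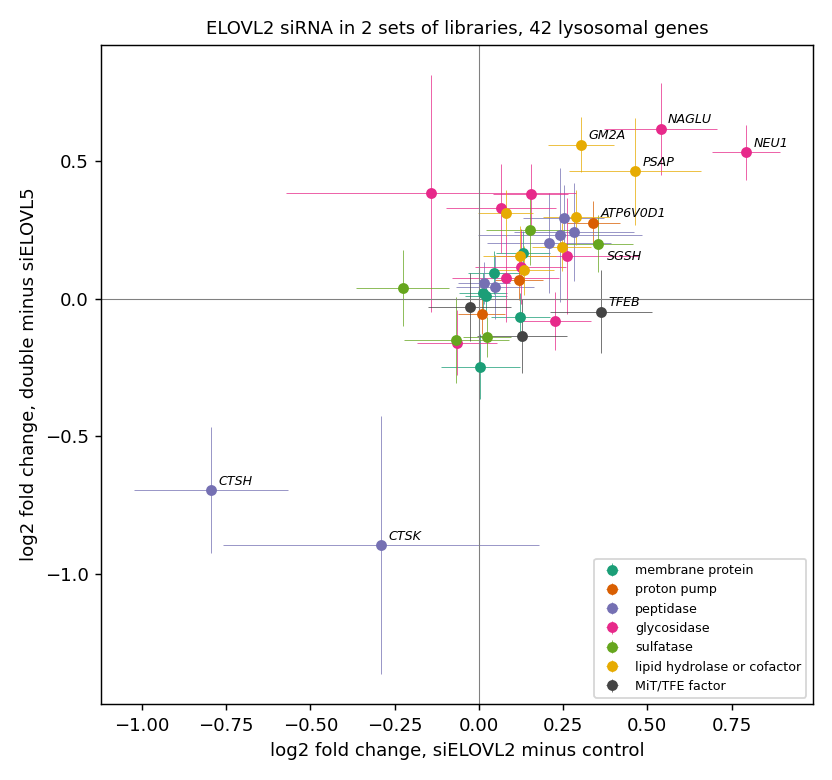
Log2 fold change of the 42 lysosomal genes for the ELOVL2 siRNA, as siELOVL2 minus control (x axis) and as double minus siELOVL5 (y axis), which share no library; colours give the role, bars are SEs, and labelled genes exceed 0.3 on the x axis or 0.42 on the y axis in size. NEU1, NAGLU, PSAP and GM2A lie at the upper right and CTSH at the lower left.

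For the ELOVL5 siRNA the separate comparisons are siELOVL5 against control and double against siELOVL2 cells. In double against siELOVL2 cells 0 members were called, and 0.059% of all genes. There limma gave 1 member (2.38%) at an unadjusted p under 0.05, PPT1, beside 672 of all genes (3.6%). PPT1 was at −0.43 in the first comparison and −0.20 in the second and did not overlap in either (2.38% of members wholly lower in both, against 1.23% of all genes). In double against siELOVL2 cells LAMP1 was the 1 member wholly higher (2.38%, against 4.53% of all genes), by 0.05, and PPT1 the 1 wholly lower (2.38%, against 4.33%). The sign was shared for 61.9% of the members (56.8% of all genes), with a Pearson r of 0.227 and a Spearman rho of 0.294. The interaction, double minus siELOVL2 minus siELOVL5 plus control, had 0 calls among the members and 0.0% of all genes. At an unadjusted p under 0.05 limma gave 0 members and 522 genes (2.8%) for it.

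Further lysosomal genes came from 6 other lists with 105 genes, of which 103 were tested; CLN3 has several rows and was left out, and ACP5 did not pass the filter. In siELOVL2 cells 4 were called higher, CTSL, MAN2B2 and SQSTM1 among them, and 1 lower, ATP6V1A, against 0.547% higher and 0.815% lower of all genes, and the median log2 fold change was 0.13. None was called in siELOVL5 cells or in double against siELOVL2 cells, where limma gave 14 and 4 of the 103 at an unadjusted p under 0.05, beside 9.56% and 3.6% of all genes. In double cells 6 were higher, MAN2B2, ATP6V0A1, SQSTM1, ULK1 and NBR1 among them, and 3 lower, ATP6V1A, ATP6V1G1 and ATG9A, against 2.15% higher and 2.27% lower of all genes, with a median of 0.17. In double against siELOVL5 cells 5 were higher, CTSL, MAN2B2, ATP6V0A1 and SQSTM1 among them, and 2 lower, ATP6V1A and ATP6V1G1, against 1.36% and 1.41% of all genes.

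The pump subunits in these lists moved in both directions. ATP6V1A, the catalytic subunit of the cytosolic sector, had 1527, 1600.5 and 1682 normalized counts in siELOVL2 libraries, 1998, 1948 and 1983 in siELOVL5 libraries and 1461, 1383 and 1619.9 in double libraries, against 2017, 2129 and 2135 in control libraries. Libraries with the ELOVL2 siRNA lay below all others. In double cells it fell by 0.50 (limma adjusted p = 0.00233), a call that held without any 1 library, and by 0.39 in siELOVL2 cells (limma adjusted p = 0.0209), a call lost without any 1 of 5 libraries (highest adjusted p 0.112). ATP6V1G1, of the same sector, had 775, 715 and 865 normalized counts in siELOVL2 libraries, 929, 906 and 942 in siELOVL5 libraries and 649, 672 and 721 in double libraries, against 911.5, 962 and 885 in control libraries. The siELOVL2 and double libraries were below all others, and ATP6V1G1 fell by 0.43 in double cells (limma adjusted p = 0.00903; lost without control replicate 2). ATP6V0A1, of the membrane sector like ATP6V0D1, had 1033, 1099.8 and 1194 normalized counts in siELOVL2 libraries, 782, 859 and 801 in siELOVL5 libraries and 1166, 1054 and 1164 in double libraries, against 784.5, 859 and 928.5 in control libraries. The siELOVL2 and double libraries were above all others. It rose by 0.40 in double cells (limma adjusted p = 0.0196), a call lost without any 1 of 4 libraries (highest adjusted p 0.0971). Over all 13 tested subunits of the list, 8 were positive and 5 negative in double cells, with a median of 0.06 (52.1% positive and 0.02 over all genes).

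Among the other hydrolases MAN2B2, an alpha-mannosidase, had 703, 761 and 719.9 normalized counts in siELOVL2 libraries, 563, 569 and 579.8 in siELOVL5 libraries and 703, 709 and 766 in double libraries, against 518, 548 and 591 in control libraries. Libraries with the ELOVL2 siRNA were above all others. It rose by 0.40 in siELOVL2 cells (limma adjusted p = 0.0201; lost without any 1 of 5 libraries) and 0.39 in double cells (limma adjusted p = 0.00945; lost without control replicate 1). CTSL, a cysteine cathepsin, had 4251, 3815 and 3891 normalized counts in siELOVL2 libraries, 2721, 2565 and 2586 in siELOVL5 libraries and 4053, 3732 and 3361 in double libraries, against 3149, 2986 and 3174 in control libraries. Its siELOVL2 and double libraries were above all controls and its siELOVL5 libraries below them. It rose by 0.36 in siELOVL2 cells (limma adjusted p = 0.0415; lost without any 1 of 9 libraries) and by 0.50 in double against siELOVL5 cells (limma adjusted p = 0.00568), which held without any 1 library. In the list of 22 tested hydrolases 20 were positive in double cells, with a median of 0.19 (52.1% positive and 0.02 over all genes).

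SQSTM1 and NBR1 encode autophagy receptors that bring ubiquitin-marked cargo to lysosomes. SQSTM1 had 10213, 8969 and 8929 normalized counts in siELOVL2 libraries, 7637, 6537 and 7310.3 in siELOVL5 libraries and 10736, 10102 and 8612 in double libraries, against 7084, 6094 and 6505 in control libraries. The siELOVL2 and double libraries were above all others. It rose by 0.51 in siELOVL2 cells (limma adjusted p = 0.0271; lost without any 1 of 6 libraries) and by 0.58 in double cells (limma adjusted p = 0.00654), which held without any 1 library. Its exons overlap those of MRNIP on the opposite strand. NBR1 had 2378, 2373 and 2568.5 normalized counts in siELOVL2 libraries, 2005, 2098 and 2336 in siELOVL5 libraries and 2534, 2624 and 2669.7 in double libraries, against 2014.5, 1958 and 2014.5 in control libraries. The siELOVL5 libraries overlapped with control and the others lay above it. NBR1 rose by 0.39 in double cells (limma adjusted p = 0.00836), which also held without any 1 library. ULK1, a kinase that starts autophagy, had 899, 885 and 916 normalized counts in siELOVL2 libraries, 787, 858 and 1146 in siELOVL5 libraries and 1103, 1137 and 1009 in double libraries, against 743, 737 and 725.5 in control libraries. All knockdown libraries were above all controls, and it rose by 0.56 in double cells (limma adjusted p = 0.0147; lost without any 1 of 5 libraries). ATG9A, a membrane protein of early autophagosomes, had 849.8, 881 and 948 normalized counts in siELOVL2 libraries, 780.0, 859 and 807 in siELOVL5 libraries and 641, 735 and 803 in double libraries, against 908, 934 and 1047 in control libraries. The siELOVL2 libraries overlapped with control and the others lay below it, and ATG9A fell by 0.41 in double cells (limma adjusted p = 0.0265; lost without any 1 of 5 libraries). Of the 18 genes of that list 17 were positive in double cells, with a median of 0.24 (52.1% positive and 0.02 over all genes). In the lists of mTORC1 and TFEB control (19 tested), of hydrolase sorting (13) and of other membrane proteins (18) no gene was called in any comparison. In double cells their medians were 0.15, 0.07 and 0.22, and limma gave 4 (21.1%), 2 (15.4%) and 7 (38.9%) genes at an unadjusted p under 0.05, beside 18.8% of all genes.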

How the data were processed

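RNA-seq values of 12 libraries were used as deposited. The table holds 1 signal value per gene and library, called normalized by the authors. Every column holds the same set of values, each a multiple of 1 over 12 libraries, as quantile normalization of read counts gives, so group differences in total RNA or in the overall distribution are removed. Aligner, counter, annotation, build and strand: not given in the sources used here. Depth before normalization was estimated from the order of tied low values. On simulated data the estimate gave 0.988 to 1.008 times the true depth. Ties in those data kept the table order, which the estimate assumes. Whether the deposited values were made that way was therefore not tested.

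A linear model was fitted to log2(value + 1) in limma 3.58.1 (R 4.3.3), with an intensity trend, all 4 groups in 1 fit (8 residual degrees of freedom) and Benjamini-Hochberg adjustment within each of 6 comparisons over 18648 genes (at least 1 in at least 3 libraries; threshold 0.05). Called means an adjusted p under 0.05. Fold changes on this scale understate low genes. The fit was tested on simulated data with independent noise in each library, so that test does not cover noise shared by same-numbered libraries. A count-based test was not run because whole reads could not be recovered for most genes. IDS was matched to the row of that symbol and number that holds values; GLMP and PIP4P1 were found under older symbols. Alternatives were another pseudocount, filter, scaling, variance model and set of groups, a replicate block and leaving out each library. Called members, LAMP1, LAMP2 and the 3 factors are given by library, as are the largest differences of each role and called genes of the other lists; CTSA and CTSD were added after their values were seen, and 1 gene of these lists is not reported here. The members and lists were chosen with earlier results of these data known.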

Additional observations from a re-analysis of the deposited data

How the results depend on the processing

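The fold changes of the called members kept their direction under every alternative run. Without an intensity trend the genes called were 101 in siELOVL2, 413 in double, 200 in double against siELOVL5, 21 in double against siELOVL2 and 9 in the interaction (254, 825, 516, 11 and 0 in the main analysis), and the members called were 2 in double and 1 in double against siELOVL5, where NEU1 had an adjusted p of 0.0639; CTSH and GM2A were the calls lost in double. CTSH in double was also lost with a pseudocount of 8, with no filter and with the compared groups alone. Fitting the compared groups alone gave 412, 1, 21 and 1 genes in siELOVL2, siELOVL5, double against siELOVL5 and double against siELOVL2, and 2 members in siELOVL2 and 0 in double against siELOVL5. A pseudocount of 8 and a filter of 10 in 3 libraries each gave 2 members in siELOVL2. Leaving out 1 library gave 63 to 829 genes and 1 to 4 members in siELOVL2, 9 to 41 and 0 in siELOVL5, 323 to 1779 and 1 to 7 in double, 156 to 789 and 0 to 4 in double against siELOVL5, 2 to 16 and 0 in double against siELOVL2, and 0 in the interaction. The cause was not tested.

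Whether the replicate numbers mark pairs was not settled. In their deviations from the group means, same-numbered libraries correlated at 0.114 to 0.166 for number 1 and 0.077 to 0.212 for number 3. For number 2 they correlated at −0.001 to 0.032. The correlation was over 0.1 in 9 of 18 same-numbered pairs, and other pairs lay at −0.215 to 0.064. With the replicate block 861, 99, 1866, 1368, 12 and 0 genes and 6, 1, 9, 10, 0 and 0 members were called, in the order siELOVL2, siELOVL5, double, double against siELOVL5, double against siELOVL2 and interaction. The member called in siELOVL5 was PPT1. Gained were ATP6V0D1, CTSH, PSAP, SMPD1 and TPP1 in siELOVL2 (PSAP at an adjusted p of 0.00756, 0.313 without the block) and CTSA, GAA, PSAP, SMPD1 and TPP1 in double (PSAP at 0.000667, 0.0943 without the block). In double against siELOVL5 the block added ATP6V0D1, CTSH, GUSB, NAGLU, PPT1, PSAP, SMPD1 and TPP1. Of 42 members 9 (21.4%) were highest in replicate 3 of all 4 groups, CTSA, TPP1, GAA, PSAP and CTSH among them, against 5.73% of all genes.

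Depth limits mainly CTSK and IDUA, at under 16 normalized counts in every library.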
